A study of Mus musculus with 4 samples.

Results

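B140H is a mouse acute myeloid leukaemia cell line that is highly resistant to cytarabine (Ara-C), and B140P is the sensitive parental line that it was derived from. Both came from the BXH-2 strain, an inbred mouse strain in which an endogenous retrovirus gives rise to myeloid leukaemia. Resistance was raised by growing parental cells in increasing amounts of Ara-C, and the cells were grown without the drug in ASM medium before total RNA was taken. The inhibitory Ara-C concentration (IC50) is about 60 µg/ml for B140H and about 110 ng/ml for B140P by the labels, a ratio of 545. A second line pair, B117H (IC50 about 160 µg/ml) and B117P (about 150 ng/ml), is used below only where it is set beside B140. Each line was sequenced as 1 library, so no value has a replicate error, no test of a difference between the lines is possible, and each line stands for 1 culture. The genes compared were those with a mean of at least 1 FPKM (fragments per kilobase of transcript, scaled to the size of the library) over the B140H and B140P libraries. They were 9510 of the 21889 genes listed (43.4%), with small RNA genes left out.

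Ara-C is an analogue of deoxycytidine. It enters the cell through nucleoside transporters such as Slc29a1 and is phosphorylated first by deoxycytidine kinase, Dck, then by nucleotide kinases, until its triphosphate is built into DNA and stops the chain. Deaminases, nucleotidases and the triphosphohydrolase Samhd1 work against this by removing the drug or its phosphates, so loss of Dck and gain of the removing enzymes are well-known routes to Ara-C resistance in leukaemia cells.

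A gene was called higher or lower when (FPKM + 1) differed at least 2-fold, which understates the change of genes near 0. By this rule 354 of the 9510 genes (3.72%) differed, with 209 higher in B140H (2.20%) and 145 lower (1.52%). The change passed 4-fold for 29 higher genes (0.305%) and 27 lower genes (0.284%). Most genes moved little, since 87.5% lay within 1.5-fold of the median ratio. That median was not at 0 but at 0.13 on the log2 scale, and when ratios were taken relative to it the split was 147 higher (1.55%) and 187 lower (1.97%). The share of higher genes among the calls was thus 59.0% as deposited and 44.0% relative to the median. Lower genes were also weaker genes, with a median level of 3.99 FPKM over the B140 libraries, against 10.9 FPKM for the higher genes and 14.5 FPKM for all genes compared. The same rule called 460 of 9995 genes (4.60%) in the B117 pair, 145 higher (1.45%) and 315 lower (3.15%) in B117H.

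**Figure D1:**
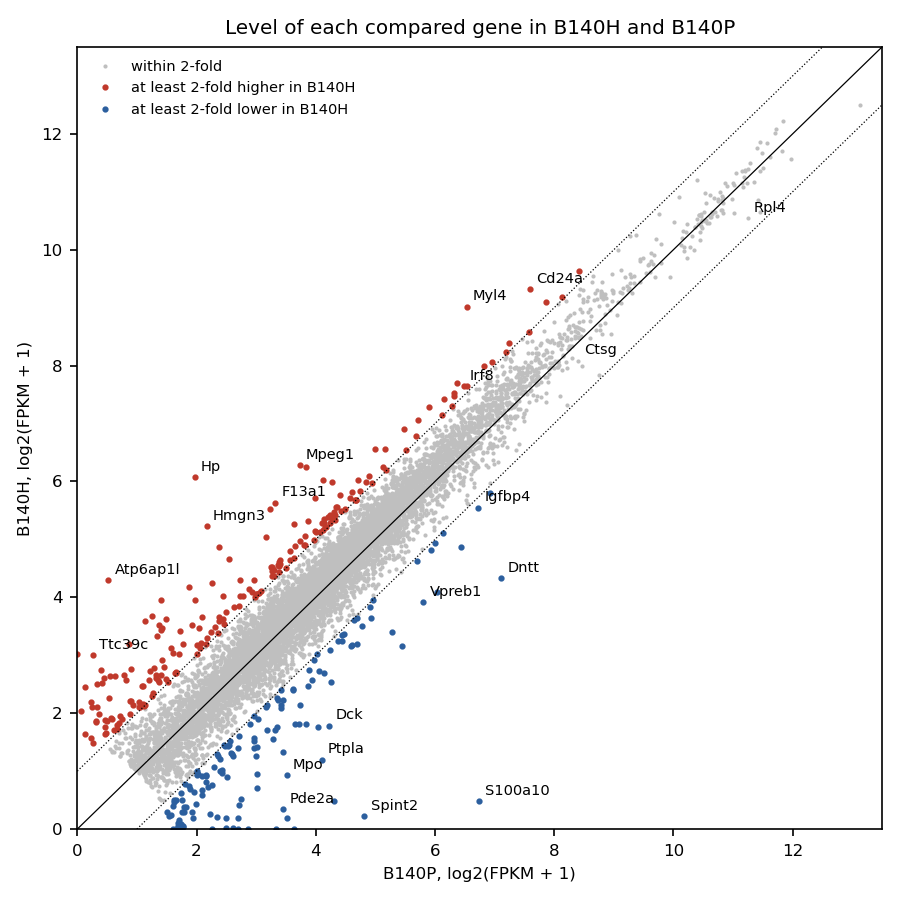
Log2(FPKM + 1) of each compared gene in B140H (vertical axis) against B140P (horizontal axis), with genes past the 2-fold rule in colour and dotted lines at 2-fold. The 209 higher and 145 lower genes lie outside a narrow band of points, and S100a10, Spint2, Hp and Dck are among those far from it.

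Libraries were of like size. The spacing of low values gave an estimate of 24950000 fragments in B140H and 19300000 in B140P, from which 3 fragments on a 2 kb transcript are worth 0.0601 FPKM in B140H and 0.0777 FPKM in B140P. The lines carry a myeloid signature with gaps. Ctsg, Prtn3, Sfpi1 (PU.1) and Cebpa were at 270, 82.0, 104 and 17.7 FPKM in B140H and at 337, 68.1, 76.6 and 12.5 FPKM in B140P. The progenitor markers Kit and Cd34 were absent or nearly so, with Kit listed at 0 in both lines and Cd34 at 0 in B140H and 0.0432 FPKM in B140P. Of 5 B-cell markers, Cd79a and Cd79b were present and the other 3, among them Ms4a1 and Pax5, were under 1 FPKM in both lines. The 5 T-cell, 4 NK-cell, 3 eosinophil and 6 stromal marker sets each summed to at most 0.173 FPKM in B140H and 0.215 FPKM in B140P. A longer list of 24 stromal genes, however, summed to 496 FPKM in B140H and 409 FPKM in B140P. In that list the collagen gene Col4a5 was higher (11.1 FPKM in B140H, 1.20 FPKM in B140P) and Sparc lower (0.546 FPKM in B140H, 2.33 FPKM in B140P). Other sets were not near 0: dendritic markers summed to 11.4 FPKM in B140H and 18.2 FPKM in B140P, mainly Siglech, and megakaryocyte markers to 8.76 and 7.80 FPKM in B140H and B140P, mainly Gp9. Mast cell and basophil markers summed to 5.65 FPKM in B140H and 15.5 FPKM in B140P, all of it Mcpt8, and erythroid markers to 1.88 and 2.56 FPKM in B140H and B140P. In bulk RNA, fewer cells of a kind and less RNA per cell cannot be told apart.

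Dck, the first kinase on the Ara-C route (chromosome 5, bases 89194038 to 89212302 in mm9), fell to 2.44 FPKM in B140H, against 17.8 FPKM in B140P, a log2 ratio of -2.45. By estimated fragments 13.8% of the B140P level remained (95% interval 11.7 to 16.1%, counting error only). The change was not shared by the surrounding chromosome: its 20 nearest compared neighbours, which span 15.1 Mb, had a median log2 ratio of 0.09 and ranged from -0.56 to 0.50. Dguok, the mitochondrial kinase of deoxyguanosine, was the other activating gene past the rule. It rose to 15.7 FPKM in B140H, against 7.10 FPKM in B140P, a log2 ratio of 1.04 that drops under 2-fold relative to the median of all genes. The other 13 compared activating genes stayed inside 2-fold, a limit that 3.72% of all genes passed. Tk1, thymidine kinase, was at 129 FPKM in B140H and 96.2 FPKM in B140P, and the cytidylate kinase Cmpk1 at 67.6 and 54.0 FPKM in B140H and B140P.

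None of the 3 compared transporter genes and none of the 11 compared removing genes passed 2-fold, where 3.72% of all genes did. Slc29a1, the main nucleoside carrier of blood cells, was at 98.5 FPKM in B140H and 64.9 FPKM in B140P, a log2 ratio of 0.60. The concentrative transporter Slc28a2 lay under the filter, at 0.0312 FPKM in B140H and 0.694 FPKM in B140P. Samhd1 was nearly level, at 29.7 FPKM in B140H and 27.1 FPKM in B140P. Cytidine deaminase, Cda, was listed at 0 in both lines. The cytosolic nucleotidase Nt5c2 was at 16.6 FPKM in B140H and 13.3 FPKM in B140P. Dctd, the deaminase of dCMP, was at 17.6 FPKM in B140H and 20.9 FPKM in B140P. All 25 compared genes of deoxynucleotide synthesis also stayed inside 2-fold, and the ribonucleotide reductase subunit Rrm2 was at 174 FPKM in B140H and 113 FPKM in B140P. No compared drug efflux pump of the 5 on the list passed it. The Abcc4 pump, in the lower stretch of chromosome 14 described below, was at 8.55 FPKM in B140H and 16.01 FPKM in B140P. Abcb4, a transporter gene that is not on this list, was at 9.85 FPKM in B140H and 1.66 FPKM in B140P, a log2 ratio of 2.03.

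Falls larger than that of Dck left some well-expressed genes of B140P at or near 0 in B140H. S100a10, the partner of annexin A2 at the plasma membrane (chromosome 3, bases 93359039 to 93368567), had 0.401 FPKM in B140H and 106 FPKM in B140P, with 0.388% remaining (interval 0.156 to 0.801%, counting error only). Spint2, an inhibitor of membrane serine proteases (chromosome 7, bases 30041349 to 30066996), had 0.173 FPKM in B140H and 27.2 FPKM in B140P. The centromere protein gene Cenpb was listed at 0 in B140H and at 11.5 FPKM in B140P, and the dipeptidase gene Pepd at 0 in B140H and 5.48 FPKM in B140P. These are losses of nearly the whole signal, and in the B117 pair the same genes did not pass the rule. S100a10 was at 128 FPKM in B117H and 176 FPKM in B117P, and Spint2 was under 1 FPKM in both B117 lines. Cenpb was at 44.1 FPKM in B117H and 47.0 FPKM in B117P, and Pepd at 22.2 FPKM in B117H and 24.3 FPKM in B117P. In all, 8 of the lower genes were listed at 0 in B140H, while no compared gene was listed at 0 in B140P.

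Other single genes fell past 4-fold as well. The phosphodiesterase Pde2a was at 0.270 FPKM in B140H and 9.94 FPKM in B140P, and Serpinb8, an intracellular serpin, at 0.146 FPKM in B140H and 10.4 FPKM in B140P. Fbxl5, the F-box protein that senses iron, was at 0.0172 FPKM in B140H and 5.11 FPKM in B140P. Hint2, a mitochondrial hydrolase, fell to 2.37 FPKM in B140H, against 15.5 FPKM in B140P. The kinase gene Matk had 0.149 FPKM in B140H and 4.63 FPKM in B140P. Amd1, which encodes a polyamine synthesis enzyme, was at 0.00496 FPKM in B140H and 9.07 FPKM in B140P, but it overlaps its copy Amd2 in the listing, so its reads may have been split differently in each library.

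Rises were led by Hp, haptoglobin, a haemoglobin-binding protein stored in neutrophil granules. It was at 66.6 FPKM in B140H and 2.91 FPKM in B140P, a log2 ratio of 4.11. Atp6ap1l, a gene related to a proton pump accessory subunit, had 18.6 FPKM in B140H and 0.435 FPKM in B140P. The nucleosome-binding protein Hmgn3 had 36.5 FPKM in B140H and 3.49 FPKM in B140P. Heparanase, Hpse, which cleaves heparan sulphate, was at 11.7 FPKM in B140H and 1.38 FPKM in B140P. Several further rises were genes that B140P hardly expressed: the muscle myosin Myo18b was at 4.48 FPKM in B140H and 0.0988 FPKM in B140P, and the phosphorylase kinase subunit Phka1 at 4.70 FPKM in B140H and 0.261 FPKM in B140P. Others were expressed in both lines, such as the actin-severing protein gelsolin, Gsn, at 44.8 FPKM in B140H and 8.46 FPKM in B140P, and Myl4, a myosin light chain of atrium and fetal muscle, at 518 FPKM in B140H and 91.6 FPKM in B140P. The signalling adaptor Lcp2 (SLP-76) was at 8.21 FPKM in B140H and 0.830 FPKM in B140P.

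**Figure D2:**
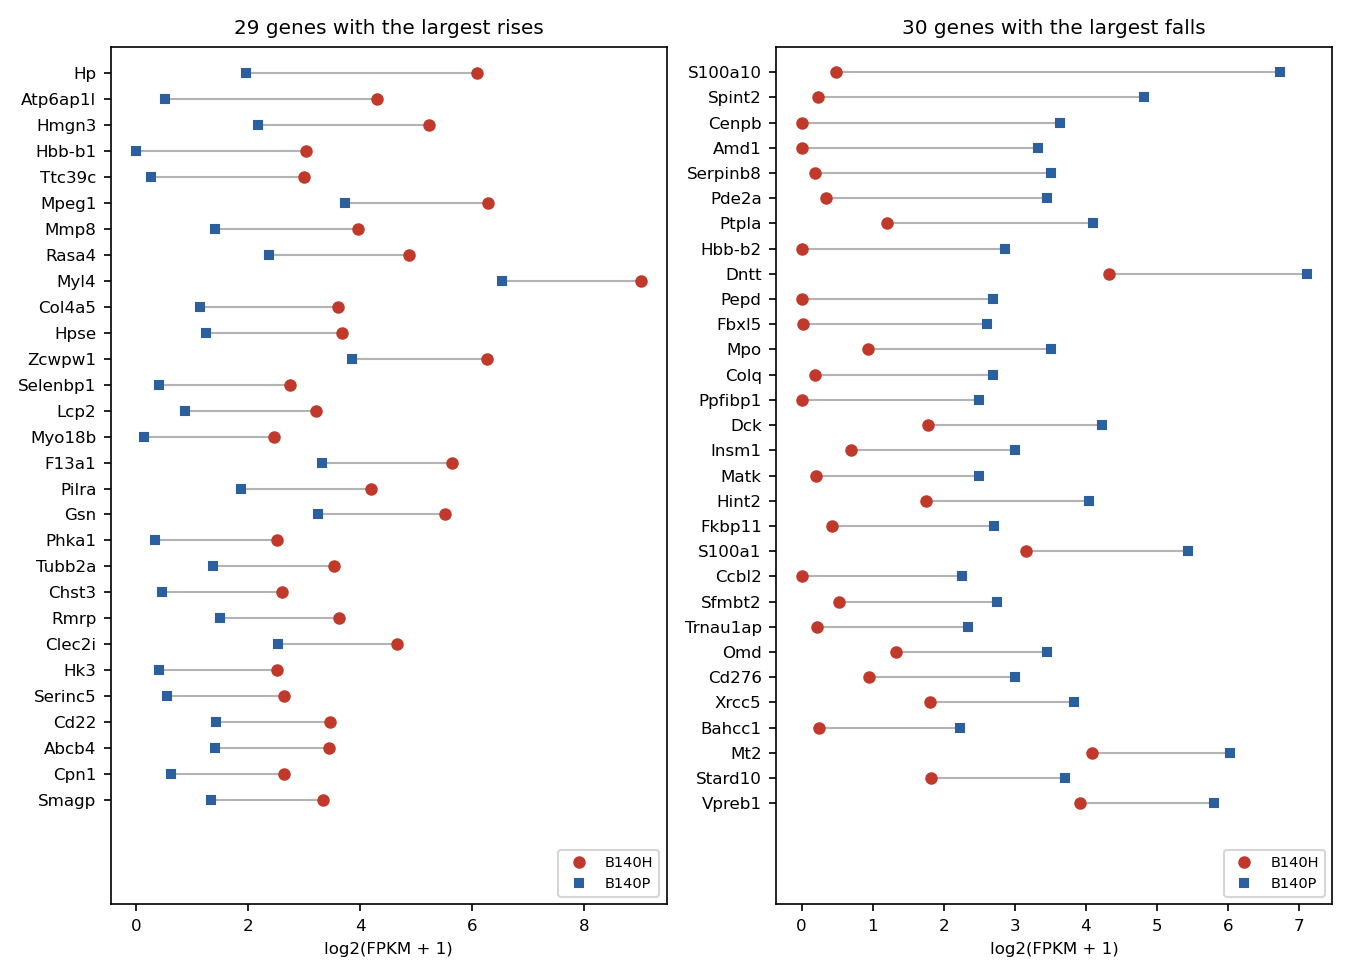
The 29 largest rises (left panel) and 30 largest falls (right panel) as log2(FPKM + 1), with a point for B140H and a point for B140P joined by a line for each gene. Hp heads the rises at 66.6 FPKM in B140H and 2.91 FPKM in B140P, and S100a10 the falls at 0.401 FPKM in B140H and 106 FPKM in B140P.

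Promoters of the changed genes held fewer CpG pairs than promoters at large. RefSeq starts (GRCm38.p6) were found for 7702 of the 9510 genes, 163 of the 209 higher and 114 of the 145 lower ones. The 250 bases before the start held a median of 13 CpG in higher genes, 10 in lower genes and 17 in all compared genes. Promoters with 3 or fewer CpG made up 14.1% of the higher, 24.6% of the lower and 5.75% of all. The lower genes also had lower levels, and that part was not tested. The promoters of 4 genes are printed because they show both kinds among the largest changes, with CG in capitals: Dck and Spint2, lower in B140H, are CpG-rich, while Dntt, lower, and Mpeg1, higher, are CpG-poor.
Dck, chr5:88764763-88765012, plus strand, 18 CpG: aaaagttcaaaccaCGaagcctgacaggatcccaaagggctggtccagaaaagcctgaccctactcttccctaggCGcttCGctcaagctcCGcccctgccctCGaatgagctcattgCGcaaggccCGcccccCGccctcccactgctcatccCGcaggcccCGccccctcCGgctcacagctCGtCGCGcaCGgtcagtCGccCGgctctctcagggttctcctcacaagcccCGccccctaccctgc
Spint2, chr7:29281978-29282227, minus strand, 24 CpG: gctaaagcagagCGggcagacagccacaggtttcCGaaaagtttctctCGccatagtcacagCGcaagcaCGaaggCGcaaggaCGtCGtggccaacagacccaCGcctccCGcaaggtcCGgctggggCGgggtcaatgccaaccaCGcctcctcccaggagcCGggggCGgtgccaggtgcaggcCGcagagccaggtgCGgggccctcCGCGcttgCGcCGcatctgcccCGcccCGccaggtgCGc
Dntt, chr19:41029025-41029274, plus strand, 2 CpG: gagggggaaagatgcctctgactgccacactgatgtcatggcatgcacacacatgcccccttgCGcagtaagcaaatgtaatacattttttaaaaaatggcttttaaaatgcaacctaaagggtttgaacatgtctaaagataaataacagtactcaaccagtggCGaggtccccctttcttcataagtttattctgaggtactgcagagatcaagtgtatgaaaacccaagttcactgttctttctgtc
Mpeg1, chr19:12460520-12460769, plus strand, 2 CpG: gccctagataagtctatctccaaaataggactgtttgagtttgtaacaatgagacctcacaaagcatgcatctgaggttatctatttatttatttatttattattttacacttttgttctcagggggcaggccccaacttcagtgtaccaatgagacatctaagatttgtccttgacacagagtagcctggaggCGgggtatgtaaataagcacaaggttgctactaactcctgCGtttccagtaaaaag
Genes lower in B140H thus include both kinds of promoter, and promoter methylation was not measured here.

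Genes of monocytes and macrophages were among the rises. Of 20 compared genes of this list, 5 were higher and 1 lower in B140H, where 2.20% of all genes were higher and 1.52% lower, with a median log2 ratio of 0.42 against 0.13 for all genes. Besides Mpeg1, the pore-forming perforin-2 (76.7 FPKM in B140H, 12.3 FPKM in B140P), the higher genes were F13a1, Spp1, Cd68 and Cx3cr1. F13a1, the clotting factor XIII subunit of monocytes, was at 48.8 FPKM in B140H and 9.02 FPKM in B140P. Spp1, the secreted protein osteopontin, was at 64.0 FPKM in B140H and 16.3 FPKM in B140P. The lysosomal protein Cd68 had 64.1 FPKM in B140H and 25.3 FPKM in B140P, and the fractalkine receptor Cx3cr1 had 15.2 and 5.67 FPKM in B140H and B140P. Ly6c2, a surface marker of inflammatory monocytes, moved the other way to 0.0611 FPKM in B140H, against 2.34 FPKM in B140P. Csf1r, the receptor of macrophage colony-stimulating factor, was at 5.31 FPKM in B140H and 3.73 FPKM in B140P and Itgam at 1.53 and 1.66 FPKM in B140H and B140P, both inside 2-fold. Irf8, a transcription factor of monocytes and dendritic cells, rose to 200 FPKM in B140H, against 88.5 FPKM in B140P. It was the only one of the 21 compared myeloid transcription factors past the rule.

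Granule genes changed in both directions. Over all genes compared, 2.20% were higher and 1.52% lower in B140H. Of the 11 compared genes of specific and late granules, Hp, the collagenase Mmp8 (14.5 FPKM in B140H, 1.65 FPKM in B140P) and Ncf1, an NADPH oxidase subunit (207 FPKM in B140H, 81.7 FPKM in B140P), were higher, and the chemokine receptor Cxcr2 was lower (1.44 FPKM in B140H, 4.08 FPKM in B140P). Of the 5 compared azurophil granule genes, myeloperoxidase, Mpo, fell to 0.913 FPKM in B140H, against 10.4 FPKM in B140P, while Ctsg and Prtn3 stayed inside 2-fold. The neutrophil genes S100a8 and S100a9 were low in both lines, at 5.32 and 3.37 FPKM in B140H and 4.52 and 3.14 FPKM in B140P. Mcpt8, a basophil protease, was at 5.65 FPKM in B140H and 15.5 FPKM in B140P.

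B140P expressed genes of early B-cell development, and several of these were lower in B140H. Of 17 compared genes of the list, 3 were higher and 5 lower (2.20% and 1.52% over all genes). Dntt, the template-free DNA polymerase of antigen receptor joining, fell to 19.2 FPKM in B140H, against 137 FPKM in B140P. The surrogate light chain genes followed, with Vpreb1 at 14.1 FPKM in B140H and 54.8 FPKM in B140P and Igll1 at 9.59 FPKM in B140H and 38.0 FPKM in B140P. The recombinase gene Rag1 was at 3.42 FPKM in B140H and 9.73 FPKM in B140P, and the B-cell coactivator Pou2af1 was listed at 0 in B140H and at 2.22 FPKM in B140P. Higher were Cd79a, a signalling chain of the B-cell receptor (16.1 FPKM in B140H, 6.63 FPKM in B140P), the inhibitory lectin Cd22 (10.02 FPKM in B140H, 1.69 FPKM in B140P) and the surface glycoprotein Cd24a (638 FPKM in B140H, 192 FPKM in B140P). The factor Ebf1 was level, at 23.7 FPKM in B140H and 24.7 FPKM in B140P.

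Progenitor genes that changed were lower, and erythroid genes changed in both directions. Of 19 compared progenitor and cytokine receptor genes, 4 were lower and 0 higher in B140H (1.52% and 2.20% over all genes). They were the SLAM receptor Cd244 (2.29 FPKM in B140H, 8.97 FPKM in B140P), the ligand Angpt1 (1.02 FPKM in B140H, 4.35 FPKM in B140P), Egfl7 (29.7 FPKM in B140H, 63.2 FPKM in B140P) and the transcription factor Sox4 (11.1 FPKM in B140H, 23.9 FPKM in B140P). The receptor Flt3 was strong in both lines, at 347 FPKM in B140H and 249.3 FPKM in B140P. Among 17 erythroid genes 4 were higher and 1 lower. Fech, the last enzyme of haem synthesis, was at 16.6 FPKM in B140H and 6.37 FPKM in B140P, and the blood group gene Rhd at 4.98 FPKM in B140H and 1.57 FPKM in B140P. The remaining calls were Myl4 and the beta-globin copies Hbb-b1 and Hbb-b2, which are listed with one span and exchanged their signal (Hbb-b1 7.17 and Hbb-b2 0.000201 FPKM in B140H, 0.000183 and 6.26 FPKM in B140P), so their direction is uncertain.

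S100 proteins, annexins and protease inhibitors gave falls and no rises. Of 17 compared genes of the S100 and annexin list, 4 were lower in B140H, where 1.52% of all genes were lower and 2.20% higher. Besides S100a10 they were S100a1 (7.95 FPKM in B140H, 42.5 FPKM in B140P), the phosphatidylserine-binding protein Anxa5 (8.08 FPKM in B140H, 23.3 FPKM in B140P) and Anxa11 (8.48 FPKM in B140H, 20.8 FPKM in B140P). Anxa9, which is not on the list and overlaps Fam63a, was also lower (8.54 FPKM in B140H, 19.8 FPKM in B140P). Of the 17 list genes, 6 lie in the chromosome runs of lower genes described below, which hold 6.85% of the genes compared. Among the lower list genes S100a10 lies in such a run, while S100a1, Anxa5 and Anxa11 lie outside the runs. Anxa2, which binds S100a10, stayed inside 2-fold at 182 FPKM in B140H and 147 FPKM in B140P, as did S100a4 and S100a6. Of 10 compared protease inhibitors, Spint2, Serpinb8 and Serpinb6b (1.93 FPKM in B140H, 8.70 FPKM in B140P) were lower. The secreted inhibitors Cst3 and Slpi leaned the other way, with Cst3 at 751 FPKM in B140H and 399 FPKM in B140P, and Slpi at 148 FPKM in B140H and 82.2 FPKM in B140P.

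Cell death and stress genes held a few changes. Over all genes compared, 3.72% passed 2-fold, 2.20% higher and 1.52% lower in B140H. Of 24 compared genes of the BCL2 family list, 2 were higher, Bcl2 among them, and none was lower. Bcl2, which blocks mitochondrial apoptosis, was at 21.7 FPKM in B140H and 8.68 FPKM in B140P, while its relative Mcl1 was at 47.7 FPKM in B140H and 92.9 FPKM in B140P, a log2 ratio of -0.95. Relative to the median of all genes Mcl1 is past 2-fold lower, at -1.08. Haem oxygenase, Hmox1, was the only one of 29 compared genes of the NRF2 and glutathione list past the rule, at 17.9 FPKM in B140H and 3.81 FPKM in B140P. Of 21 interferon-stimulated genes, Ifitm1 (4.78 FPKM in B140H, 18.1 FPKM in B140P) and Xaf1 (0.415 FPKM in B140H, 2.15 FPKM in B140P) were lower. No p53 target among 20 compared genes passed 2-fold, and the cell cycle inhibitor Cdkn1a was at 187 FPKM in B140H and 117.01 FPKM in B140P. Of 44 DNA repair and checkpoint genes, 1 (2.27%) passed 2-fold, against 3.72% of all genes. It was Xrcc5, the Ku80 subunit of end joining, at 2.50 FPKM in B140H and 13.2 FPKM in B140P. Its partner Xrcc6 was at 38.9 and 35.3 FPKM in B140H and B140P.

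Most proliferation genes lay above the median ratio of all genes, and few passed the rule. Over all genes 3.72% passed it. The 39 compared DNA replication genes had a median log2 ratio of 0.35, with 34 above the median of all genes and 1 past 2-fold, the clamp loader subunit Rfc2 (154 FPKM in B140H, 58.9 FPKM in B140P). The 35 mitosis genes had a median of 0.34 with none past 2-fold. The median level was 45.2 FPKM for the replication genes and 44.9 FPKM for the mitosis genes, against 14.5 FPKM for all genes. Ratios rose with level over all genes: the fifth with the lowest levels had a median of -0.01 and the fifth with the highest 0.24. The part of level in these shifts was not tested. Of 22 G1 cyclins and CDK regulators, the cyclin Ccne1 was higher, at 30.5 FPKM in B140H and 12.3 FPKM in B140P. Myc was at 62.1 FPKM in B140H and 120 FPKM in B140P, a log2 ratio of -0.94 that passes 2-fold lower (-1.07) relative to the median of all genes.

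Respiratory chain genes shifted together by a small amount, and 1.35% of them passed 2-fold, against 3.72% of all genes. The 74 compared genes of oxidative phosphorylation had a median log2 ratio of 0.40, and 68 of them lay above the median of all genes, but only Ndufa3, a subunit of complex I, passed 2-fold (579 FPKM in B140H, 278 FPKM in B140P), and it does not pass relative to the median. Ratios moved with transcript length over all genes: the fifth with the shortest transcripts had a median of 0.26, with 87 genes higher and 28 lower, and the fifth with the longest had a median of 0.00, with 20 higher and 30 lower. The respiratory genes are short, with a median transcript of 1094 bases, and strong, at a median level of 196 FPKM. The part of length and of level in their shift was not tested. The 79 ribosomal protein genes are as short, at a median of 1059 bases, and stronger, at a median level of 1548 FPKM. They had a median log2 ratio of 0.03 with none past 2-fold. What length or level adds to the difference between these lists was not tested either.

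Metabolic and surface genes changed singly, where 3.72% of all genes passed 2-fold. Of 32 glycolysis and hypoxia genes, the hexokinase Hk3 (4.71 FPKM in B140H, 0.332 FPKM in B140P) and Pgam1 (380 FPKM in B140H, 189 FPKM in B140P) were higher. The oxygen-sensing hydroxylase Egln3 (1.01 FPKM in B140H, 4.24 FPKM in B140P) and the lactate carrier Slc16a1 (33.8 FPKM in B140H, 69.6 FPKM in B140P) were lower. Hk3 overlaps Unc5a in the listing, so its reads may be shared, and Pgam1 drops under 2-fold relative to the median of all genes. The integrin chain Itgb7 rose to 41.9 FPKM in B140H, against 17.9 FPKM in B140P, as the only one of 25 adhesion genes past the rule. Cd28, a T-cell costimulatory receptor, was at 34.0 FPKM in B140H and 14.97 FPKM in B140P, and the T-cell markers Cd3d and Cd3e were at or near 0 in both.

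**Figure D3:**
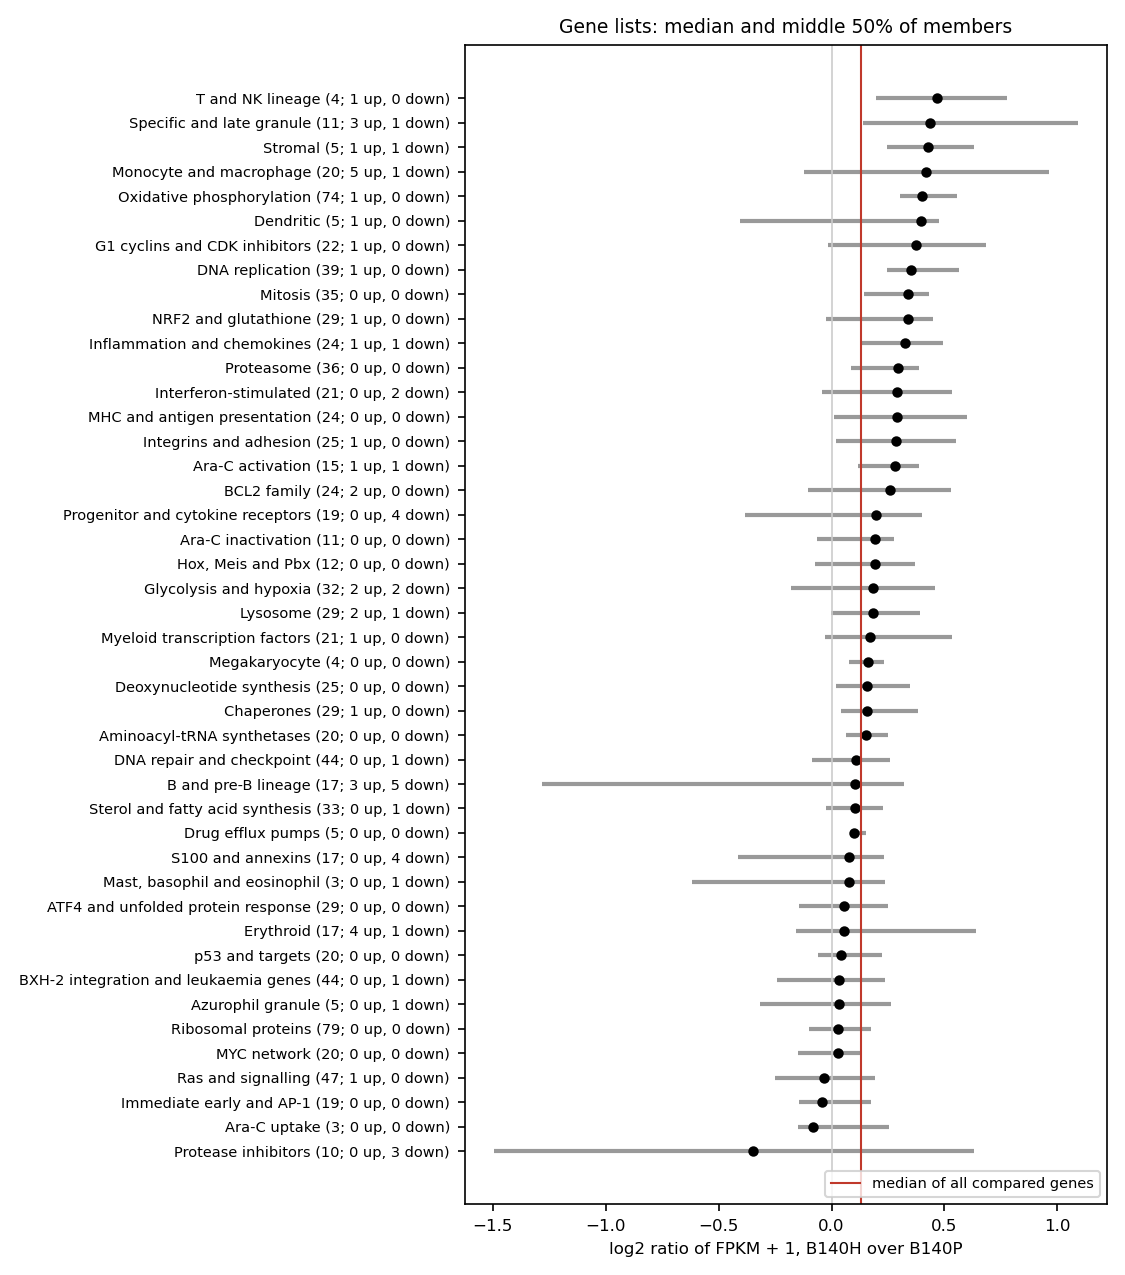
Log2 ratio of B140H over B140P for the gene lists with 3 or more compared genes, 1 row a list: points are medians, grey bars the middle 50% of members, and the red line the median of all compared genes (0.13). Counts in the row names give compared genes and genes past 2-fold; oxidative phosphorylation sits at 0.40 and ribosomal proteins at 0.03.

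Some of the changed genes lay side by side on 4 chromosomes. Runs of 25 neighbouring compared genes whose median was at least 0.5 (log2) away from that of all genes were merged, which gave 9 runs on chromosomes 3, 5, 9 and 14. Their edges were set from these same values, so what follows is a description. An edge can also reach some genes past the step in level, because it is set by medians of neighbours. Of the 209 higher genes, 58 (27.8%) lay in the runs of higher genes, which hold 2.10% of the genes compared. Of the 145 lower genes, 35 (24.1%) lay in the runs of lower genes, which hold 6.85%. Relative to the median of all genes these counts were 33 of 147 higher genes (22.4%) and 52 of 187 lower genes (27.8%). DNA copy number was not measured here.

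On chromosome 5 the run went from base 130271434 to base 144670708 (mm9) and held 133 compared genes. Their median log2 ratio was 0.76, 123 of them lay above the median of all genes, 39 (29.3%) were past 2-fold higher, and 0 were lower. Relative to the median of all genes the counts were 22 higher and 1 lower. The 445 genes before it had a median of 0.19 and the 47 genes after it 0.25. Rasa4, a GTPase-activating protein that switches off Ras, was at 28.3 FPKM in B140H and 4.19 FPKM in B140P. Ap1s1, a clathrin adaptor subunit, was at 133 FPKM in B140H and 51.8 FPKM in B140P. Zcwpw1 was at 75.4 FPKM in B140H and 13.4 FPKM in B140P, but it overlaps the receptor gene Pilra (17.2 and 2.67 FPKM in B140H and B140P), so their reads may be shared. Rfc2 and Ncf1, named above with replication and granule genes, lie in this run. The same 133 genes had a median log2 ratio of -0.11 for B117H over B117P.

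Chromosome 3 carried a lower run and then a higher one that reached the last compared gene. The lower run (bases 90416816 to 130433247, 170 genes) had a median log2 ratio of -0.48, with 154 genes below the median of all genes, 15 past 2-fold lower (23 relative to the median of all genes) and 1 higher, the selenium-binding protein Selenbp1 (5.67 FPKM in B140H, 0.325 FPKM in B140P). S100a10 and Selenbp1 stand at its start among genes that were not low, since the neighbours of S100a10, S100a11 and Mrpl9, had log2 ratios of 0.80 and 0.48, while Pip5k1a and Vps72 further on had -0.66 and -0.74 (genes picked with their values in view). The run also holds the receptor Notch2 (9.36 FPKM in B140H, 21.4 FPKM in B140P) and the telomerase RNA gene Terc (0.504 FPKM in B140H, 3.28 FPKM in B140P). The higher run (bases 127510183 to 159192919, 67 genes, 10 of them shared with the lower run) had a median of 0.79, with 19 genes higher and 2 lower, or 11 higher and 3 lower relative to the median of all genes. It holds Nfkb1 (38.1 FPKM in B140H, 16.2 FPKM in B140P), the apoptosis and NF-kappaB adaptor Bcl10 (20.9 FPKM in B140H, 8.61 FPKM in B140P), the histone variant gene H2afz (794 FPKM in B140H, 340 FPKM in B140P) and the G-protein subunit Gng5 (184 FPKM in B140H, 78.9 FPKM in B140P). The exceptions were Ccbl2, listed at 0 in B140H and at 3.79 FPKM in B140P, and the fatty acid elongase Elovl6, at 0.0201 FPKM in B140H and 2.43 FPKM in B140P.

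The end of chromosome 3 was also higher in the second line pair, over a shorter stretch. The same procedure was run on the B117H over B117P ratios of the genes compared in the B140 pair. It gave a higher run from Mapksp1 (base 137581519) to the last compared gene, 40 genes that all lie in the B140 run. These 40 genes had a median log2 ratio of 0.86 for B140H over B140P and 0.73 for B117H over B117P. The 27 genes of the B140 run that come before them had a median of 0.64 for B140H over B140P and -0.07 for B117H over B117P. Bcl10 and Gng5 lie in the shared stretch, with B117 log2 ratios of 0.98 and 0.99, and H2afz and Nfkb1 lie before it, with B117 log2 ratios of 0.12 and -0.16.

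On chromosomes 9 and 14 the shift was downward and small, but it ran over most of the chromosome. The 369 genes from the first to the last run of chromosome 9 (bases 3335231 to 103946141) had a median log2 ratio of -0.37, and 346 of them (93.8%) lay below the median of all genes. The 149 genes beyond had a median of 0.17. Within the stretch the ubiquitin ligase Cbl was at 9.13 FPKM in B140H and 18.8 FPKM in B140P, the DNA damage kinase Atm at 5.88 FPKM in B140H and 11.05 FPKM in B140P, and the ribosomal protein gene Rpl4 at 1497 FPKM in B140H and 2433 FPKM in B140P. In that stretch 10 genes were past 2-fold lower (15 relative to the median of all genes), among them the immune checkpoint ligand Cd276 (0.926 FPKM in B140H, 7.06 FPKM in B140P) and the corepressor Tle3 (3.67 FPKM in B140H, 9.95 FPKM in B140P), and Hmgn3, Mmp8 and Gnb5 were past 2-fold higher. On chromosome 14 the 228 genes from base 37688122 to base 123382483 had a median of -0.39, with 212 below the median of all genes, 11 past 2-fold lower and 0 higher, and the 99 genes before had a median of 0.05. The necroptosis kinase Ripk3 was at 8.14 FPKM in B140H and 24.8 FPKM in B140P, Kctd12 at 2.41 FPKM in B140H and 9.20 FPKM in B140P, and the mitochondrial carboxylase subunit Pcca at 13.3 FPKM in B140H and 29.0 FPKM in B140P. The stretches of chromosomes 9 and 14 had medians of 0.00 and 0.03 for B117H over B117P.

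**Figure D4:**
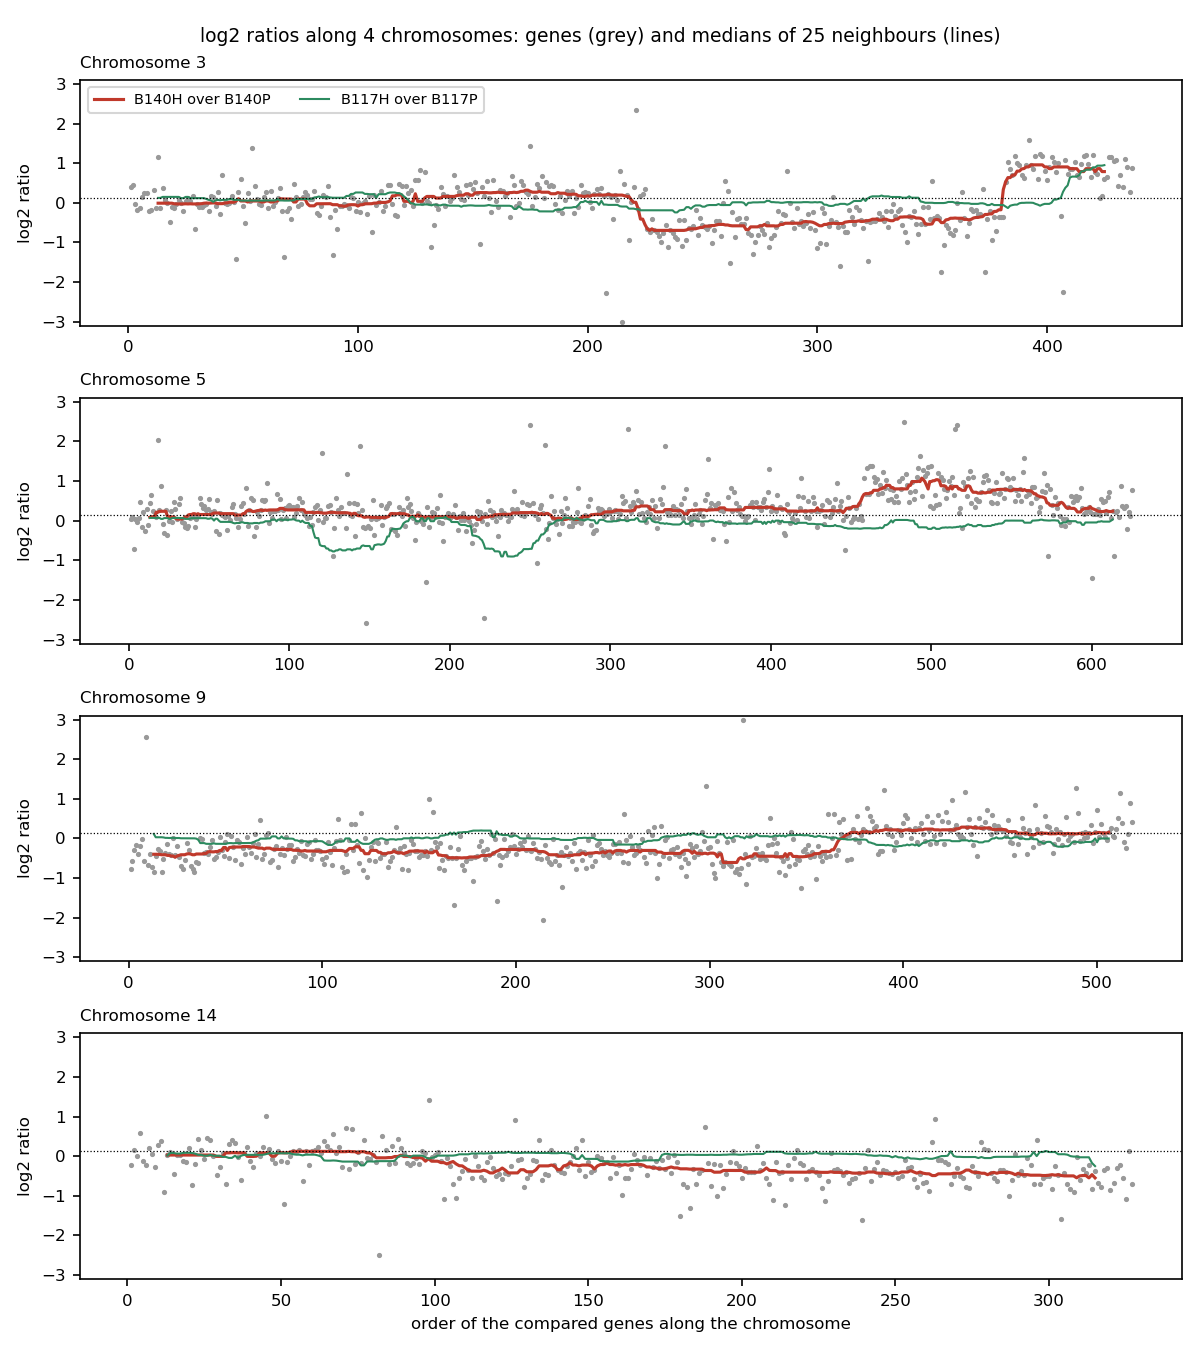
Log2 ratio of B140H over B140P for each compared gene of chromosomes 3, 5, 9 and 14 against its order along the chromosome, with medians of 25 neighbouring genes as lines (red B140H over B140P, green B117H over B117P) and genes beyond 3 in either direction drawn at 3 or -3. The red line drops and then climbs on chromosome 3, has 1 raised stretch late on chromosome 5, and lies below the median of all genes (dotted) over most of chromosomes 9 and 14.

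Few of the B140 changes went the same way in the B117 pair and more went the opposite way, both at higher shares than over all genes. Of 9184 genes compared in both, 174 were higher in B140H than in B140P. Of these, 6 (3.45%) were also higher in B117H than in B117P, where 0.838% of the 9184 genes were higher. Another 24 (13.8%) were lower there, where 2.45% of the 9184 genes were lower. Of the 120 lower in B140H, 8 (6.67%) were also lower in B117H, against 2.45% of the 9184 genes. Another 10 (8.33%) were higher in B117H, against 0.838% of the 9184 genes. The 8 genes lower in both were Dck, Ifitm1, Ly6c2, Mpo, the growth factor binding protein Igfbp4, the endocytic adaptor Dab2, Ccbl2 and LOC547349, which overlaps H2-D1 and H2-Q1. Igfbp4 was at 45.8 FPKM in B140H and 105 FPKM in B140P, and Dab2 at 5.72 FPKM in B140H and 13.8 FPKM in B140P. Dck was at 3.31 FPKM in B117H and 20.1 FPKM in B117P, a log2 ratio of -2.29 beside -2.45 in the B140 pair. Its 20 neighbours, which had a median of 0.09 in the B140 pair, had a median log2 ratio of -0.54 for B117H over B117P, with 18 of them below 0 there; this difference between the pairs was not tested. The named genes higher in both were the F-box protein Fbxo44, Rtn4rl1, and Pigk and Ankrd13c, the last pair from the end of chromosome 3. Relative to the median of all genes Ankrd13c, at 0.97 in the B140 pair, loses its call.

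**Figure D5:**
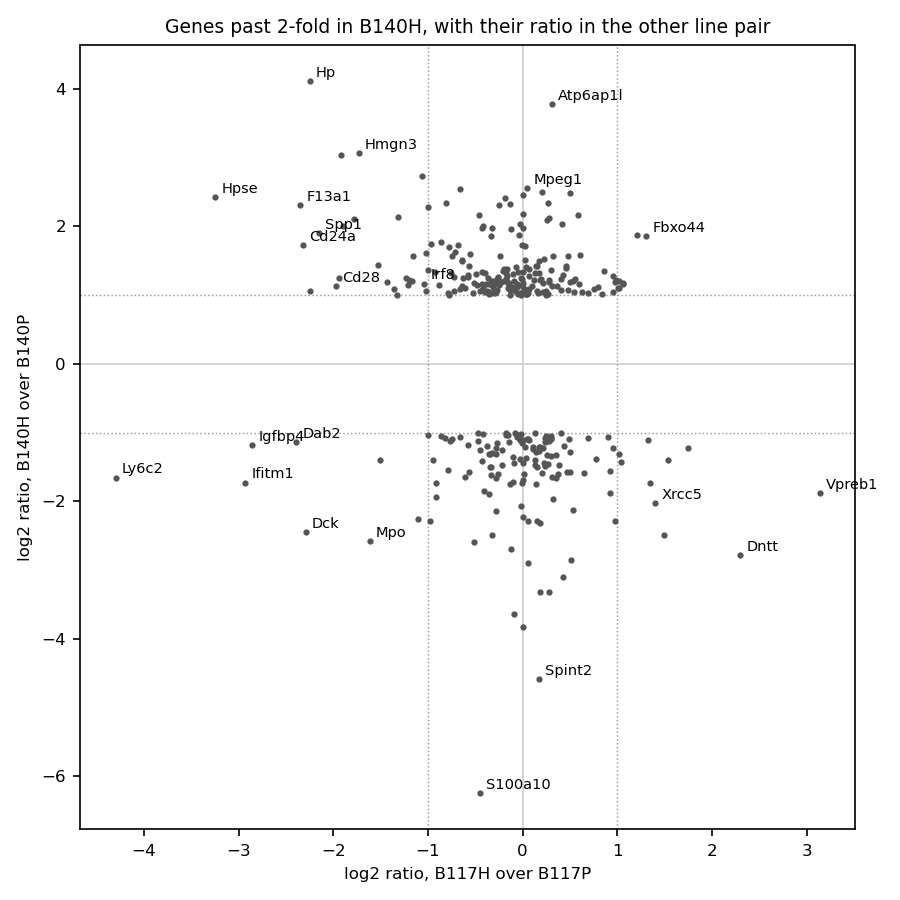
Log2 ratio of B140H over B140P (vertical axis) against that of B117H over B117P (horizontal axis) for the 354 genes past 2-fold in the B140 pair, with dotted lines at 2-fold. Dck lies past the limit in both pairs, while Hp, F13a1, Dntt and Vpreb1 lie past it in opposite directions.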

How the data were processed

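RNA-seq libraries of B140H and B140P, 1 a line, were compared. Gene-level FPKM, without counts, is the unit the authors deposited. Per the submitters' processing notes, TopHat2 2.0.4, Cuffdiff and the mm9 build were used, with no roles given. Values were used as deposited, joined on the gene identifier, and 693 small RNA genes were left out. Ratios are log2((FPKM + 1)/(FPKM + 1)) over genes whose mean FPKM was at least 1, called at 2-fold. No test was run, since each line has 1 library. The members and gene lists were chosen with earlier results of these data known.

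The genes named were the 30 largest rises and falls, all Ara-C genes, the members of each other list past 2-fold with the 4 strongest, the 10 largest changes of each run, and up to 15 genes a direction changed in both pairs. Beside cell type markers and overlapping genes, Ebf1, Myc, Xrcc6, S100a8 and S100a9 fall outside this rule; they were picked with their values in view. Some genes that the rule names are not reported here.

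The steps between low values of FPKM times length, in 761 genes with a single transcript of 3 kb or more (GENCODE M21 lengths), gave the estimated depth. Of the low values, 80.4% of 56 in B140H and 69.5% of 82 in B140P fell within 0.15 of whole fragments, so counts were not recovered. Intervals are exact Clopper-Pearson intervals at 95%, on fragments estimated in this way. Promoters came from RefSeq, with the first listed start per gene. Steps were tested on simulated data. The tools were scipy 1.17.1, pandas 2.3.3 and numpy 2.4.6 in Python 3.11.15, with figures from matplotlib 3.10.9.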

Additional observations from a re-analysis of the deposited data

Results flagged for a closer look

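Some named genes passed 2-fold in opposite directions in the line pairs; for each of them the difference between the pairs was not tested, and each pair has 1 library a line. Values are log2 ratios, B140H over B140P first and B117H over B117P after it.

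Of myeloid and granule genes, Hp had 4.11 and -2.25, F13a1 2.31 and -2.35, Spp1 1.91 and -2.15, Irf8 1.17 and -1.04, and the cathepsin Ctsz 1.15 and -1.21. Of lymphoid genes, Dntt had -2.78 and 2.30, Vpreb1 -1.88 and 3.14, Cd24a 1.73 and -2.32, and Cd28 1.13 and -1.97. The heparanase Hpse had 2.42 and -3.25, and Hmgn3 had 3.06 and -1.73. Hexokinase Hk3, which overlaps Unc5a, had 2.10 and -1.79. The globin copy Hbb-b1, which shares its span with Hbb-b2, had 3.03 and -1.92. Angpt1 had -1.40 and 1.54, Ppfibp1 -2.49 and 1.497, and Xrcc5 -2.02 and 1.40. Ccne1 had 1.24 and -1.24, Smagp 2.003 and -1.90, Ttc39c 2.74 and -1.06, and the RNA gene Rmrp 2.14 and -1.32.

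Small RNA genes were kept out of the comparison. Of the 47 that passed the filter on level, 28 were at least 2-fold higher in B140H than in B140P and 16 lower. They made up 89.0% of the summed FPKM in B140H and 17.4% in B140P, and the strongest single gene held 94.0% of the small RNA sum in B140H and 95.7% in B140P. These are shares of FPKM, which is scaled to transcript length, and not shares of the fragments in a library.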

How the results depend on the processing

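No paired analysis was possible because each line has 1 library and the labels carry no replicate numbers. Of 41 main values recomputed under the alternatives, 33 stayed within the limit set for them (1.5 times for counts) and Dck kept its direction. A pseudocount of 0.1 gave 226 lower genes and a Dck log2 ratio of -2.81. A minimum mean of 5 FPKM left 203 genes past 2-fold, 63 of them lower. A 4-fold rule left 56 genes, 29 higher and 27 lower, and 19 list members. Ratios taken relative to the median gave 147 higher and 187 lower genes. Runs of 15 genes gave 11 stretches and runs of 50 gave 8, against 9 in the report. Among lists, single genes and runs, 351 values moved and 1182 did not. Centring turned the sign of 13 of 45 list medians, all within 0.13 of 0 (ribosomal proteins 0.03 and -0.10, B and pre-B 0.10 and -0.03), and of 30 of 349 named genes, 0 of them past 2-fold. With 1 library a line, spread between cultures is unknown. Depth limits genes near 0, where 3 fragments on a 2 kb transcript are 0.0601 FPKM in B140H and 0.0777 FPKM in B140P.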
